A study of Homo sapiens with 6 samples.

Results

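The BCL2 family of apoptosis regulators was examined in a pooled CRISPR knockout screen of HAP1, a near-haploid human cell line that came from a chronic myeloid leukaemia. The members were chosen by gene name from a family list, and the family was proposed with measured changes of these same samples already known, those of MCL1 among them. Of the 7 genes listed, 6 had guides in the count table, 10 each, among 7093 genes: MCL1, BCL2, BCL2L1, BCL2L2, BAX and BAK1. BCL2A1 was not analysed here. The calls and adjusted p-values of members below state where each gene stood in a fit of the whole table, and they are a description, not independent support.

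Library, parental and SETD2-mutant samples were compared, with 2 samples of each. The library samples carry the genotype label Library and give the starting abundance of the guides; the labels do not say how they were taken. The parental and the SETD2-mutant HAP1 samples are genomic DNA from cells that received the guide virus at a multiplicity of infection of 0.7 and then grew under puromycin for 12 doublings. SETD2 is the enzyme that places trimethylation on lysine 36 of histone H3. The labels name 1 SETD2-mutant genotype, without the allele or the number of clones, so a property of a clone and a property of the mutation cannot be told apart. Replicates were divided from 1 transduction of each line, so the p-values cover the spread between these samples alone, and what a line's 2 samples share from that transduction counts in none of them.

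BCL2 family proteins set whether the outer membrane of the mitochondrion stays intact. The pro-survival proteins MCL1, BCL2, BCL-XL (the product of BCL2L1) and BCL-W (the product of BCL2L2) bind and hold the effectors BAX and BAK (the product of BAK1), while BH3-only proteins displace or activate them. Freed BAX and BAK form pores, cytochrome c leaves the mitochondrion, and caspases are activated. MCL1 is a short-lived protein that is steadily degraded by the proteasome. In a growth screen, a guide whose target the cells need becomes rarer, and a guide that removes a brake on growth or survival becomes more common.

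Total counts per sample ranged from 25082426 to 38428425, and the median count per guide from 284 to 466. Guides with no count numbered 5 to 6 in library, 89 to 116 in parental and 205 to 358 in SETD2-mutant samples, of 71626. The first SETD2-mutant sample was the shallowest. Replicates of the library differed by a chi-square of 1.37 per degree of freedom, close to the 1 of pure counting error, and those of parental and SETD2-mutant cells by 14.2 and 13.0. The intervals and floors given for single guides cover counting error only.

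To describe a gene, the edgeR log2 fold changes of its guides were averaged, with the standard error (SE) over guides, and a negative value means that cells with those guides became rarer. A gene is called depleted or enriched where robust rank aggregation (RRA) of the guides' edgeR p-values gave an adjusted p below 0.05 by Benjamini-Hochberg over 7090 genes. All 60 member guides entered the fit. A value for 1 sample is the mean over guides of log2 CPM (counts scaled to the sequencing depth, prior count of 2) minus that of the library samples.

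By the mean over guides, the 4 pro-survival genes lay below library and the 2 effectors above it, and not every change was called. The means of MCL1, BCL2L1, BCL2L2 and BCL2 stood below library in each of the 4 cell samples. Those of BAX and BAK1 stood above it in each of the 4. Single guides of BCL2, BCL2L2, BAX and BAK1 went the other way in parental cells, and some of BAX and BAK1 did in SETD2-mutant cells. How many of all genes keep to a single side in all 4 samples was not counted, and nothing is read from the split. The side of BAX and BAK1 holds relative to the bulk of guides: with samples scaled on dummyguide guides (a label that the sources do not explain), both stood below library in both lines. That scaling moved the median of all genes by −0.72 on the log2 scale in parental cells, by −0.92 in SETD2-mutant cells and by −0.19 between the lines.

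**Figure D1:**
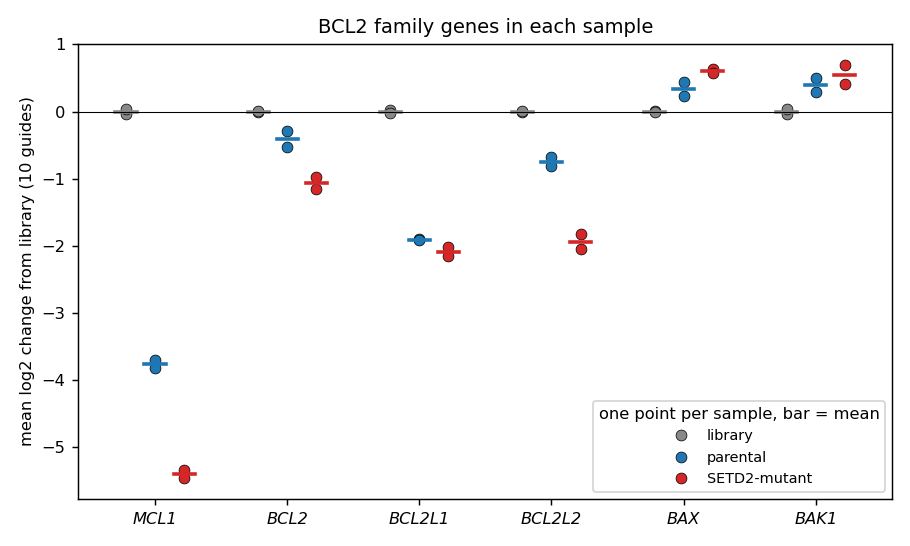
Change of each BCL2 family member in each of the 6 samples, as the mean over 10 guides of log2 CPM minus the library mean (vertical axis), with 1 point per sample coloured by group and the group mean as a bar. MCL1 lies at −3.70 and −3.82 in parental and at −5.34 and −5.46 in SETD2-mutant samples, BCL2L1 lies near −2 in all 4 cell samples, and BAX and BAK1 lie above 0.

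In parental cells 2 of the 6 members were called depleted against library, MCL1 and BCL2L1, where 9.90% of all genes were called depleted. None was called enriched, where 1.11% of all genes were, and 1 member reached an unadjusted RRA p below 0.05 in that direction. On the same parental values, limma on gene means and edgeR on summed counts per gene each called 2 members enriched, BAX and BAK1, and DESeq2 per guide called 0. Of all genes in parental cells, limma called 23.6% enriched and 31.3% depleted, summed counts 29.5% and 30.3%, and DESeq2 per guide 1.04% and 9.92%. The median change of the 6 members was −0.57, and that of all genes was −0.01.

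In SETD2-mutant cells 4 members were called depleted against library, MCL1, BCL2L1, BCL2L2 and BCL2, where 9.04% of all genes were. By edgeR and RRA, BAX was the 1 member of the 6 called enriched, where 1.11% of all genes were. Limma on gene means and edgeR on summed counts per gene each called 2 members enriched there, BAX and also BAK1 (adjusted p = 0.00526 by limma and 3.94e-05 by edgeR on sums). Of all genes in SETD2-mutant cells, limma called 23.8% enriched and 38.0% depleted, summed counts 30.2% and 32.7%, and DESeq2 per guide 1.07% and 9.07%. The median change of the members was −1.47 and that of all genes −0.05. The comparisons with library share the library samples, and the values of each are therefore given side by side.

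Between the lines, SETD2-mutant against parental, 2 members were called depleted, MCL1 and BCL2L2, where 1.28% of all genes were. None was called enriched, where 1.03% of all genes were. By unadjusted RRA p below 0.05 there was 1 member in the enriched direction, limma on gene means and summed counts per gene each called 1, BAX, and DESeq2 per guide called 0. Of all genes between the lines, limma called 12.6% enriched and 22.0% depleted, summed counts 20.0% and 21.2%, and DESeq2 per guide 1.09% and 1.18%. The median of the members was −0.40 and that of all genes −0.04. Family membership was proposed with these contrasts known, so nothing is read from any of these counts.

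**Figure D2:**
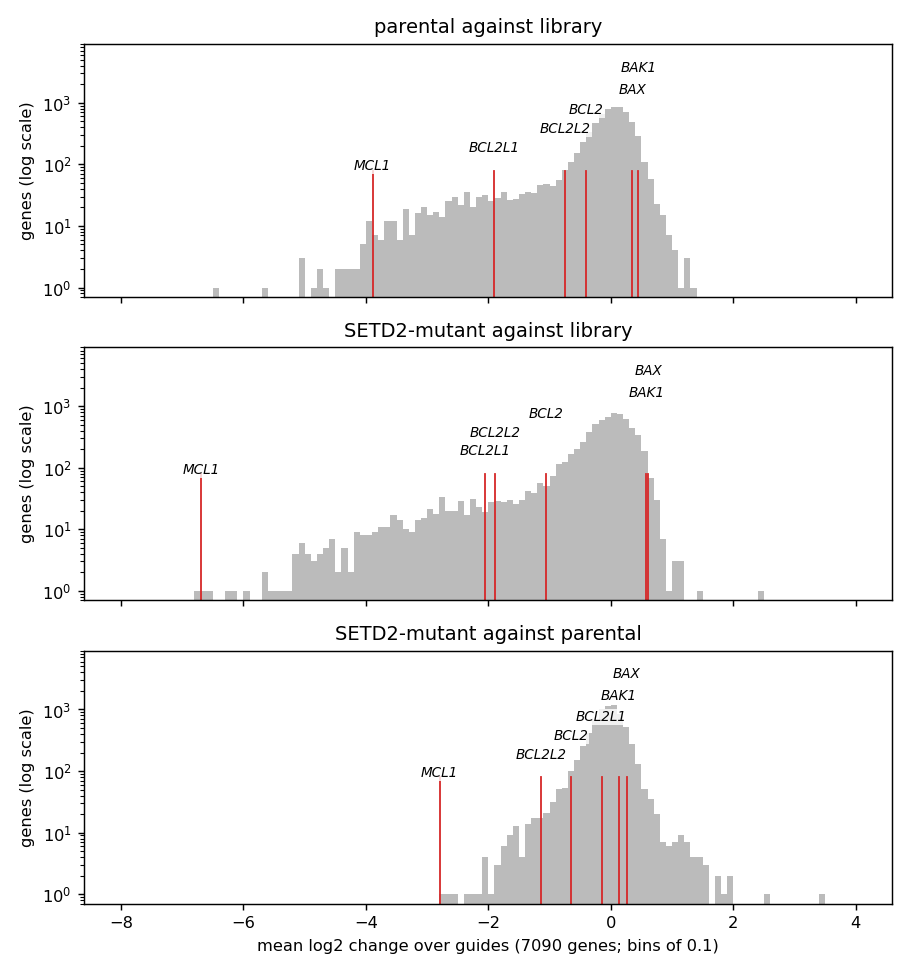
Distribution of the mean log2 change of 7090 genes in each comparison (horizontal axis, log2; vertical axis, number of genes on a log scale), with the family members marked by vertical lines. MCL1 lies at −3.89, −6.69 and −2.80 in the lower tails, and BAX and BAK1 lie to the right of the median in all 3 comparisons.

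MCL1 guides were depleted in both lines, and more so in SETD2-mutant cells. MCL1 (chromosome 1, 150574558 to 150579610, GRCh38.p14) had summed counts over its 10 guides of 3417 and 3247 in library, 439 and 415 in parental and 91 and 86 in SETD2-mutant samples. As a percentage of the library's summed CPM, 12.8% and 13.7% remained in the parental samples, against 4.01% and 2.81% in the SETD2-mutant ones. On these sums the groups did not overlap, and within each line the 2 samples were close to each other. Single guides could differ more between replicates, as given below. Among all genes, how often the samples of the lines do not overlap was not counted, here or for the genes below.

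The mean log2 change of MCL1 was −3.89 in parental cells (SE 0.700, 10 of 10 guides down, adjusted p = 6.10e-06 by edgeR and RRA). In SETD2-mutant cells it was −6.69 (SE 0.987, 10 of 10 guides down, adjusted p = 1.53e-06 by edgeR and RRA). Ordered by mean change, MCL1 was number 35 from the bottom of 7090 genes in parental cells and number 2 in SETD2-mutant cells. Both calls held in all 17 alternatives that were run.

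Between the lines the mean change of MCL1 was −2.80 (SE 0.788, 9 of 10 guides down), the lowest of 7090 genes in this fit and number 1 to 14 from the bottom over 17 alternatives. Its adjusted p by edgeR and RRA was 0.0490, just inside the threshold, and the call held in 8 of the 17 alternatives, with adjusted p from 5.67e-05 to 0.268. It was lost without parental replicate 1 (−1.97, adjusted p = 0.131), without SETD2-mutant replicate 1 (−3.15, adjusted p = 0.174) and without SETD2-mutant replicate 2 (−3.20, adjusted p = 0.258), each by edgeR and RRA. The size of the change also depends on how counts of 0 are treated, because 2 of its guides had no count in either SETD2-mutant sample. With those guides set to a floor of 3 counts over the group, the mean was −2.09 (SE 0.589) between the lines and −6.01 (SE 0.786) from library to SETD2-mutant cells. With a prior count of 2, as in the values by sample, it was −1.64 between the lines.

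The 53 measured ribosomal protein genes, which serve as a yardstick of dropout, had a median change of −3.53 in parental cells and −4.08 in SETD2-mutant cells. When SETD2-mutant changes were scaled so that these medians were equal, MCL1 differed between the lines by −1.89, BCL2L2 by −0.89 and BCL2 by −0.51. The MCL1 value uses the edgeR means, so its size, and its distance from that of BCL2L2, also depend on how counts of 0 are treated. The means with a floor or with a prior count of 2 were not scaled in this way. BCL2L1 then stood at 0.13, BAX at 0.18 and BAK1 at 0.05.

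Single MCL1 guides show how the loss was spread. Guide HZD_SRF_22647 had 226 and 209 library counts, 20 and 0 in parental and 0 and 0 in SETD2-mutant samples. Guide HZD_SRF_22645 had 196 and 193 library counts, 6 and 9 parental counts and 0 in both SETD2-mutant samples. With the SETD2-mutant count set to a floor of 3 over the group, these guides were 116-fold and 104-fold lower than library. At the same floor they were 5.49-fold and 4.12-fold lower than in parental cells. The library and parental counts enter these folds without an interval, so the folds are not lower bounds. All parental counts of HZD_SRF_22647 came from a single sample.

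The strongest loss in parental cells was that of guide HZD_SRF_22646, with 521 and 497 library counts, 2 and 0 parental counts and 0 and 1 SETD2-mutant counts. At 3 counts or fewer on both sides it carries little on the difference between the lines, a ratio of 1.65 with a 95% interval of 0.0858 to 97.2. Guide HZD_SRF_22643 had the largest ratio between the lines among guides with over 100 parental counts in sum. It had 403 and 409 library counts, 43 and 76 parental counts and 2 and 0 SETD2-mutant counts, a ratio of 49.0 (95% interval 13.3 to 410).

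Of the 10 MCL1 guides, 7 were below −1 on the log2 scale between the lines. Guides with counts left in both SETD2-mutant samples were among them. HZD_SRF_22644 was 4.26-fold lower than in parental cells (95% interval 3.10 to 5.98). HZD_SRF_22650 was 3.86-fold lower (2.62 to 5.85) and HZD_SRF_22641 was 6.19-fold lower (4.19 to 9.47). Guide HZD_SRF_22642 was 17.3-fold lower, from 21 parental counts to 1, with an interval of 2.78 to 716.

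Guides HZD_SRF_22648 and HZD_SRF_22649 did not share the difference. The first had 55 counts in parental samples and 43 in SETD2-mutant samples, a ratio of 1.05 (95% interval 0.694 to 1.61). Its replicates disagreed in both lines, with 11 and 44 parental counts and 34 and 9 SETD2-mutant counts. The second had 16 parental and 23 SETD2-mutant counts and was the only MCL1 guide above 0 between the lines, at 0.75. Both guides were nonetheless lost from library, at −3.00 and −4.93 in parental cells and at −3.02 and −4.19 in SETD2-mutant cells.

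**Figure D3:**
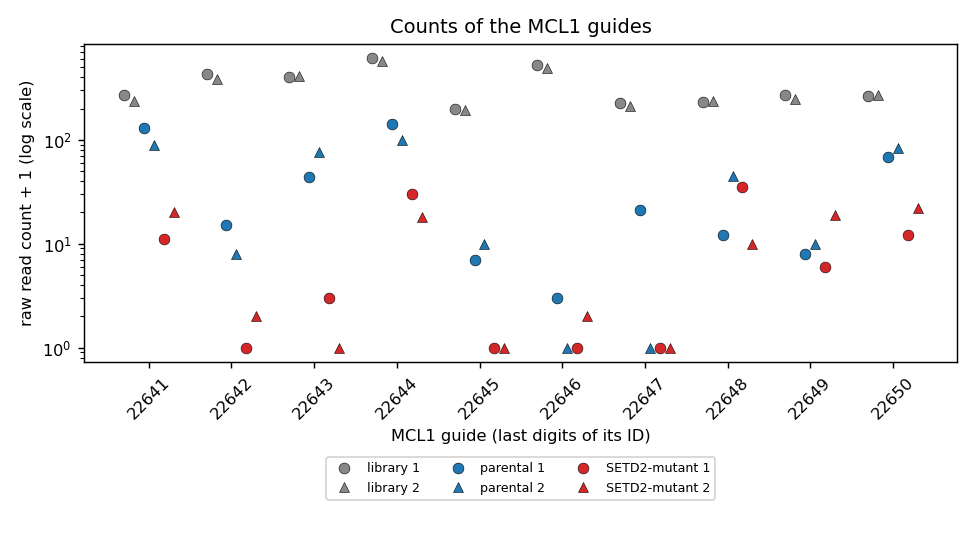
Raw counts of each of the 10 MCL1 guides in each of the 6 samples, plotted as count + 1 on a log scale so that counts of 0 lie at 1 (vertical axis); the horizontal axis gives the guides, the colours the groups, and circles and triangles the replicates. Every guide lies below its library points in both lines, and HZD_SRF_22645 and HZD_SRF_22647 have 0 counts in both SETD2-mutant samples.

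BCL2L1, which encodes BCL-XL, was the other pro-survival gene called in parental cells, and it was called in SETD2-mutant cells too, with no call between the lines. BCL2L1 (chromosome 20, 31664452 to 31723963, GRCh38.p14) overlaps the antisense lncRNA gene BCL2L1-AS1 and the lncRNA gene LOC124904883 in the annotation. Its summed counts were 10715 and 9520 in library, 2992 and 2561 in parental and 1732 and 2506 in SETD2-mutant samples. In CPM, 28.7% and 27.8% of library remained in the parental samples, against 25.2% and 27.0% in the SETD2-mutant ones. The SETD2-mutant samples lay just below the parental ones, by less than the distance of either from library.

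The mean change of BCL2L1 was −1.91 in parental cells (SE 0.330, 10 of 10 guides down, adjusted p = 9.93e-06 by edgeR and RRA) and −2.06 in SETD2-mutant cells (SE 0.354, 10 of 10 guides down, adjusted p = 1.81e-05 by edgeR and RRA). Both calls held in all 17 alternatives. Between the lines it was −0.15 (SE 0.192, 7 of 10 guides down), which was not called (adjusted p = 1 by edgeR and RRA). The 4 cell samples lay between −1.90 and −2.15.

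In parental cells the 10 BCL2L1 guides stood at −4.50, −2.49, −2.01, −1.91, −1.80, −1.68, −1.49, −1.43, −1.21 and −0.57. In SETD2-mutant cells they stood at −4.62, −3.09, −2.16, −2.13, −2.07, −1.88, −1.50 and −1.36, with 2 more that reached up to −0.76. The lowest was HZD_ODT_01048 and the highest HZD_ODT_01044 in both lines. Between the lines the guides ran from −1.19 for HZD_ODT_01045 to 0.80 for HZD_ODT_01047, on both sides of 0.

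BCL2L2, which encodes BCL-W, was lost more from SETD2-mutant than from parental cells and set the lines apart more evenly over its guides than MCL1 did. BCL2L2 (chromosome 14, 23306833 to 23311751, GRCh38.p14) lies inside the readthrough gene BCL2L2-PABPN1 (23306833 to 23326163). Neither the readthrough gene nor PABPN1 is reported on here, and the cut sites of guides were not analysed. Its summed counts were 9296 and 8518 in library, 5584 and 5406 in parental and 1766 and 2490 in SETD2-mutant samples. In CPM, 60.9% and 66.7% of library remained in the parental samples, against 29.1% and 30.5% in the SETD2-mutant ones, and the groups did not overlap.

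Between the lines the mean change of BCL2L2 was −1.14 (SE 0.189, 10 of 10 guides down, adjusted p = 0.00262 by edgeR and RRA), number 86 from the bottom of 7090 genes. The call held in 15 of 17 alternatives and was lost without parental replicate 1 (−1.19, adjusted p = 0.0801) and without parental replicate 2 (−1.07, adjusted p = 0.111), both by edgeR and RRA, with little movement of the change itself. The guides ran from −1.99 for HZD_ODT_01080 to −0.03 for HZD_ODT_01079, and 5 of the 10 were below −1. Their standard deviation was 0.597, against 2.49 for the guides of MCL1 in the same contrast.

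Against library, BCL2L2 guides were depleted in SETD2-mutant cells, with a mean of −1.88 (SE 0.245, 10 of 10 guides down, adjusted p = 2.00e-05 by edgeR and RRA), a call that held in all 17 alternatives. The SETD2-mutant guides stood at −2.80, −2.77, −2.65, −2.11, −1.97, −1.72, −1.66, −1.66, −1.23 and −0.28. In parental cells its mean was −0.74 (SE 0.180, 9 of 10 guides down), which was not called (adjusted p = 0.128 by edgeR and RRA) but was called in 8 of 17 alternatives, with adjusted p from 5.91e-06 to 1. Among these were the fits without either library replicate (adjusted p = 0.0186 and 0.0124) and without either SETD2-mutant replicate (adjusted p = 0.0152 and 0.0170), all by edgeR and RRA. Parental guides ran from −1.72 for HZD_ODT_01078 to 0.33 for HZD_ODT_01076.

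BCL2, the founding pro-survival member, had the smallest change of the 4 pro-survival genes in each line, and its values in the lines lay apart without passing the test of the difference. BCL2 (chromosome 18, 63123346 to 63320090, GRCh38.p14) had summed counts of 8420 and 7739 in library, 8153 and 6152 in parental and 3165 and 3626 in SETD2-mutant samples. In CPM, 98.0% and 83.7% of library remained in the parental samples, against 57.5% and 48.9% in the SETD2-mutant ones. The first parental sample was close to library, and both SETD2-mutant samples were lower than both parental ones.

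Its mean change was −0.40 in parental cells (SE 0.201, 7 of 10 guides down), which was not called (adjusted p = 1 by edgeR and RRA). In SETD2-mutant cells it was −1.06 (SE 0.229, 10 of 10 guides down, adjusted p = 0.0484 by edgeR and RRA), a call that held in 9 of 17 alternatives, with adjusted p from 2.33e-05 to 0.640. It was lost without either library replicate (adjusted p = 0.0606 without replicate 1 and 0.0538 without replicate 2, by edgeR and RRA). It was also lost without either SETD2-mutant replicate (adjusted p = 0.135 without replicate 1 and 0.274 without replicate 2, by edgeR and RRA). Between the lines the mean was −0.66 (SE 0.229, 9 of 10 guides down) and was not called (adjusted p = 0.231 by edgeR and RRA). Limma on gene means (adjusted p = 0.00407) and edgeR on sums of counts (adjusted p = 0.000453) called it depleted, in settings where they called 1561 and 1503 of 7090 genes depleted.

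BCL2 guides were spread over both sides of library in parental cells, from −1.53 for HZD_ODT_01039 to 0.42 for HZD_ODT_01036. In SETD2-mutant cells they stood at −2.46, −1.90, −1.35, −1.27, −1.07, −1.06, −0.52, −0.33, −0.32 and −0.31, again with HZD_ODT_01039 lowest, and HZD_ODT_01034 highest. Between the lines they ran from −1.69 for HZD_ODT_01033 to 0.73 for HZD_ODT_01037.

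**Figure D4:**
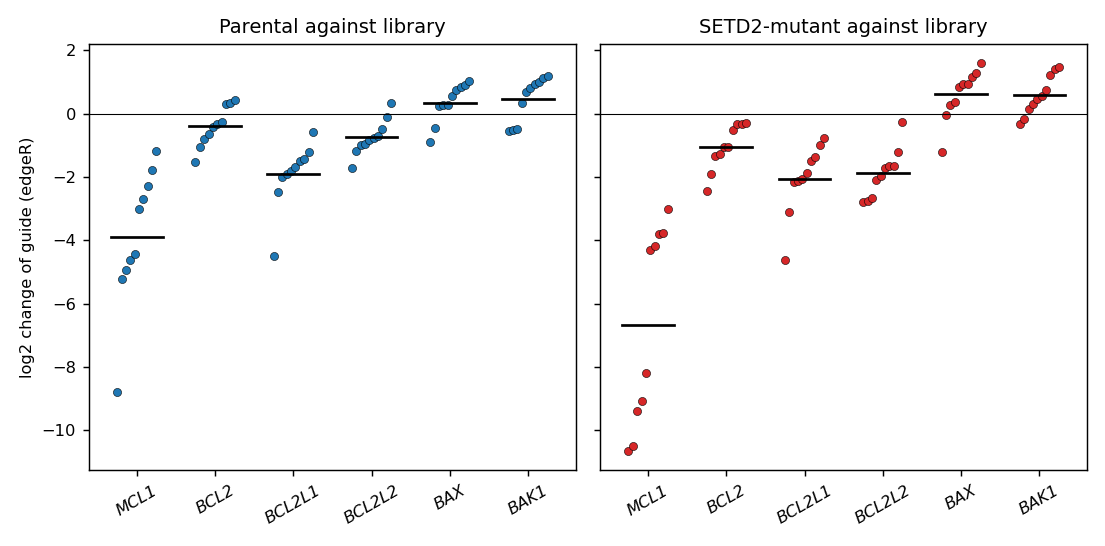
The edgeR log2 change of each single guide of the 6 family members against library (vertical axis) in parental cells (left) and in SETD2-mutant cells (right), with 10 points per gene in order of change and the gene's mean as a bar. MCL1 guides spread from −10.65 to −3.02 in SETD2-mutant cells, where the lowest are guides with 0 counts whose fitted change depends on the prior count, and all BCL2L1 guides lie below 0 in both lines.

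The mean over guides of each effector stood above library in every cell sample, and neither gene was called between the lines. BAX (chromosome 19, 48954875 to 48961798, GRCh38.p14) had summed counts of 3844 and 3387 in library, 4559 and 4775 in parental and 4392 and 5480 in SETD2-mutant samples. In CPM these were 123% and 145% of library in the parental samples, against 179% and 165% in the SETD2-mutant ones. Both SETD2-mutant samples were higher than both parental samples, and all 4 were above both library samples.

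BAX guides were enriched in SETD2-mutant cells, with a mean of 0.61 (SE 0.257) and 8 of 10 up (adjusted p = 0.0207, edgeR with RRA), number 105 from the top of 7090 genes. The call was lost without SETD2-mutant replicate 1 (0.57, adjusted p = 0.189) and without SETD2-mutant replicate 2 (0.64, adjusted p = 0.145), both by edgeR and RRA, and with dummyguide scaling, where the change turned to −0.30 (adjusted p = 0.0641, edgeR with RRA). In parental cells its mean was 0.35 (SE 0.195) with 8 of 10 up (adjusted p = 0.540, edgeR with RRA), and it turned to −0.38 with dummyguide scaling. Between the lines it stood at 0.26 (SE 0.173) with 7 of 10 up (adjusted p = 0.584, edgeR with RRA). Guide HZD_SRF_03587 went against the others in both lines, at −0.90 in parental and −1.22 in SETD2-mutant cells, while the highest guides were HZD_SRF_03583 at 1.01 in parental and HZD_SRF_03589 at 1.59 in SETD2-mutant cells.

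BAK1 (chromosome 6, 33572552 to 33580276, GRCh38.p14), which encodes the effector BAK, had summed counts of 3974 and 3634 in library, 5850 and 5205 in parental and 4057 and 6210 in SETD2-mutant samples. In CPM these were 149% and 150% of library in the parental samples, against 157% and 178% in the SETD2-mutant ones. All 4 cell samples were above library, and the SETD2-mutant samples were the highest of them on this scale. On the scale of mean log2 change over guides the lines overlapped, with 0.29 and 0.50 in parental and 0.40 and 0.70 in SETD2-mutant samples.

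The mean change of BAK1 was 0.45 in parental cells (SE 0.225, 7 of 10 guides up) and 0.58 in SETD2-mutant cells (SE 0.199, 8 of 10 guides up), and neither was called (adjusted p = 0.406 in each by edgeR and RRA). With dummyguide scaling these stood at −0.27 and −0.34. Between the lines it was 0.13 (SE 0.179, adjusted p = 1 by edgeR and RRA), a value whose sign turned without SETD2-mutant replicate 2. The guides ran from −0.56 for HZD_SRF_03561 to 1.19 for HZD_SRF_03566 in parental cells, and from −0.34 for HZD_SRF_03569 to 1.46 for HZD_SRF_03566 in SETD2-mutant cells.

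From lowest to highest mean change, the order in parental cells was MCL1, BCL2L1, BCL2L2, BCL2, BAX and BAK1. The values by sample did not overlap between neighbours among the first 4, and those of BAX (0.23 and 0.44) and BAK1 (0.29 and 0.50) did. In SETD2-mutant cells the order was MCL1, BCL2L1, BCL2L2, BCL2, BAK1 and BAX. There BCL2L1 (−2.15 and −2.02) and BCL2L2 (−2.05 and −1.83) overlapped, with the lower BCL2L2 sample inside the range of BCL2L1 and the higher one above it. In parental samples, where BCL2L2 stood at −0.81 and −0.68, they did not overlap. BAX and BAK1 overlapped again. MCL1, BAX and BAK1 guides belong to the SRF set of guide names and the others to the ODT set, and the median guide of these sets differed between the lines by −0.0073 and 0.0063.

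The genes most like MCL1 were sought among all tested genes by Euclidean distance over the 4 changes of single samples from library. They were TAZ at 0.435, RPL34 at 0.554, RPL38 at 0.768, NHP2L1 at 0.774 and PLK1 at 0.829. TAZ is a symbol that has been used for more than 1 gene, RPL34 and RPL38 encode proteins of the large ribosomal subunit, NHP2L1 encodes a protein of the spliceosome and of nucleolar RNPs, and PLK1 is a mitotic kinase. TAZ stood at −3.97 and −3.64 in parental and −5.38 and −5.75 in SETD2-mutant samples. The other family members were far from MCL1 by this measure, with BCL2L1 at number 390, BCL2L2 at 552, BCL2 at 870, BAK1 at 6906 and BAX at 6916 in order of distance.

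Around the family, 4 lists of apoptosis genes held 40 measured genes. Between the lines 3 of the 40 were depleted and 1 enriched, where 1.28% and 1.03% of all genes were. In parental cells 11 were depleted against library, where 9.90% of all genes were, and in SETD2-mutant cells 12 were, where 9.04% of all genes were. By edgeR and RRA none was enriched against library in either line, where 1.11% of all genes were in each. At an unadjusted RRA p below 0.05 there were 3 in that direction in parental and 2 in SETD2-mutant cells, DESeq2 per guide called 0 in each, limma 8 and 6 (23.6% and 23.8% of all genes), and sums of counts 10 and 9 (29.5% and 30.2% of all genes). Their median changes were −0.14 between the lines, −0.17 in parental cells and −0.25 in SETD2-mutant cells. The named genes of each list follow a rule by RRA p and are not a sample of the list. Medians of all genes are those given above, −0.04, −0.01 and −0.05.

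Of 22 BH3-only and other BCL2-related genes, 13 were measured, and the called ones were channel and SNARE genes. VDAC2, a mitochondrial outer membrane channel that binds BAK and BAX, was depleted in parental cells by −2.23 (SE 0.423), in SETD2-mutant cells by −3.69 (SE 0.701) and between the lines by −1.46 (SE 0.316, 8 of 10 guides down, adjusted p = 0.0114 by edgeR and RRA). Its samples stood at −2.17 and −2.27 in parental and at −3.98 and −3.59 in SETD2-mutant cells, and they did not overlap. The call between the lines was lost without parental replicate 1 (−1.40, adjusted p = 0.122 by edgeR and RRA) and with DESeq2 per guide (−1.49, adjusted p = 0.0746 by RRA). The change was −2.31 without SETD2-mutant replicate 2 and −0.55 with summed counts per gene, and both were called.

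VDAC1, a related outer membrane channel, was depleted between the lines by −1.16 (SE 0.224, 10 of 10 guides down, adjusted p = 0.000125 by edgeR and RRA). It stood at −0.97 and −0.80 in parental and at −2.21 and −1.88 in SETD2-mutant samples, and was called against library in SETD2-mutant cells. With summed counts per gene its change was −0.76 between the lines and −0.98 in SETD2-mutant cells, and both calls were kept. VDAC3, the third VDAC gene, was depleted in SETD2-mutant cells with a mean of −0.85 (SE 0.198, adjusted p = 0.00814 by edgeR and RRA) and was not called in parental cells at −0.53. Its call was lost without SETD2-mutant replicate 1 (−0.67, adjusted p = 0.164 by edgeR and RRA) and where RRA considered the top 0.1 of ranks (adjusted p = 0.95). The 3 VDAC genes were those of the 13 list genes called depleted in SETD2-mutant cells, where 9.04% of all genes were. VDAC1 and VDAC2 were those called depleted between the lines, where 1.28% of all genes were.

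BNIP1, a BH3-containing SNARE protein of the endoplasmic reticulum, went the other way. It was depleted in parental cells by −1.76 (SE 0.567, adjusted p = 0.00248 by edgeR and RRA), with −1.89 and −1.60 by sample, and stood at −1.09 and −1.16 in SETD2-mutant samples. Its change between the lines was 0.65 (SE 0.438) with 7 of 10 guides up, which was called enriched (adjusted p = 0.0144, edgeR with RRA). The call did not hold in 4 of 17 alternatives, among them without parental replicate 1 (0.53, adjusted p = 0.161), without parental replicate 2 (0.85, adjusted p = 0.0501) and without SETD2-mutant replicate 2 (0.65, adjusted p = 0.0577), all by edgeR and RRA. The list's median change was −0.08 between the lines, −0.10 in parental and −0.10 in SETD2-mutant cells.

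Of the 19 apoptosome, caspase and inhibitor genes, 5 were measured. Of those, 3 were depleted in each line, where 9.90% of all genes were in parental and 9.04% in SETD2-mutant cells, and none differed between the lines in a called way, with 2 at an unadjusted RRA p below 0.05. CYCS, which encodes cytochrome c, an electron carrier of the respiratory chain as well as the trigger of the apoptosome, was depleted by −3.42 (SE 0.400) in parental and −4.72 (SE 0.484) in SETD2-mutant cells. HTRA2, a mitochondrial protease, was depleted by −1.78 (SE 0.326) and −2.79 (SE 0.578). AIFM1, a mitochondrial oxidoreductase also known as apoptosis-inducing factor, was depleted by −1.21 (SE 0.173) and −1.35 (SE 0.366). The second call was lost without SETD2-mutant replicate 2 (−1.28, adjusted p = 0.106 by edgeR and RRA) and with dummyguide scaling (adjusted p = 0.135 by edgeR and RRA), and both calls were lost where RRA considered the top 0.1 of ranks (adjusted p = 1 in each line). The 3 called genes act in mitochondrial metabolism or protein quality as well as in cell death, and the cause of their depletion was not tested. Between the lines CYCS stood at −1.30 (adjusted p = 0.428) and HTRA2 at −1.01 (adjusted p = 0.449), both by edgeR and RRA, and limma on gene means called both (adjusted p = 0.00628 for CYCS and 0.000401 for HTRA2), in a comparison where it called 22.0% of all genes depleted. DESeq2 per guide called none of the 5 between the lines, limma 2 depleted and 1 enriched, and sums of counts 2 of each. The median of the list was −0.14 between the lines, −1.21 in parental and −1.35 in SETD2-mutant cells.

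Of the 16 death receptor genes, 12 were measured. By edgeR with RRA, 1.28% of all genes were depleted and 1.03% enriched between the lines. In parental cells these shares were 9.90% and 1.11%, and in SETD2-mutant cells 9.04% and 1.11%. None of the 12 was called in any comparison. By unadjusted RRA p below 0.05 there was 1 in the enriched direction in each comparison with library, and none between the lines. DESeq2 per guide also called 0 in each comparison. Limma and sums of counts called 3 and 5 of the 12 depleted between the lines and none enriched, 3 and 3 depleted with 3 and 5 enriched in parental cells, and 5 and 4 depleted with 1 and 2 enriched in SETD2-mutant cells. These counts stand against the shares of all genes given for the same settings with the family members. The gene past the unadjusted threshold was TNFRSF1A, the main receptor of tumour necrosis factor, at 0.51 (SE 0.185) in parental and 0.37 (SE 0.122) in SETD2-mutant cells, values that turned to −0.22 and −0.54 with dummyguide scaling. FASLG, the ligand of the receptor FAS, had the lowest mean of the list in SETD2-mutant cells at −1.29 (SE 0.630), with a median over guides of −0.47. RIPK3, a kinase of necroptosis, stood at 0.07 in parental and −0.19 in SETD2-mutant cells, and CYLD, a deubiquitinase, at −0.69 and −0.53. The median of the list was −0.12 between the lines, 0.05 in parental and −0.03 in SETD2-mutant cells, near the medians of all genes against library.

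Of 19 genes for the turnover or transcription of MCL1, 10 were measured, and 6 were depleted in each line, where 9.90% of all genes were in parental and 9.04% in SETD2-mutant cells. PPP2CA, the main catalytic subunit of phosphatase 2A, was depleted by −3.00 (SE 0.522) in parental and −4.30 (SE 1.00) in SETD2-mutant cells. CDK9, the kinase of P-TEFb that releases paused RNA polymerase II, was depleted by −2.65 (SE 0.313) and −2.89 (SE 0.252), and SKP1, an adaptor of cullin 1 ligases, by −2.09 (SE 0.452) and −2.69 (SE 0.433). CUL1, the scaffold of those ligases, was depleted by −1.70 (SE 0.598) and −1.61 (SE 0.665). These proteins have many substrates besides MCL1. FBXW7, a substrate receptor of cullin 1 ligases, was the gene called in parental cells but not in SETD2-mutant cells, at −1.25 and −1.40 (adjusted p = 0.0187 and 0.0723 by edgeR and RRA), and its difference between the lines was not called at −0.15. CUL5 was called in SETD2-mutant cells but not in parental cells. HUWE1 completes the genes called in each line, depleted in both by edgeR and RRA.

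CUL5, the scaffold of another family of ubiquitin ligases, was the only gene of this list called between the lines by edgeR and RRA, where 1.28% of all genes were called depleted. Its change was −2.13 (SE 0.364, 10 of 10 guides down, adjusted p = 4.35e-06 by edgeR and RRA). It stood at −0.77 and −0.75 in parental and at −3.18 and −2.58 in SETD2-mutant samples, and the call held in all 17 alternatives. At an unadjusted RRA p below 0.05, 6 of the 10 list genes were in the depleted direction between the lines and 1 in the enriched direction. DESeq2 per guide called 1 of the 10 depleted there. Limma and summed counts per gene each called 7, where they called 22.0% and 21.2% of all genes depleted. The list's median change was −0.33 between the lines, −1.19 in parental and −1.54 in SETD2-mutant cells.

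**Figure D5:**
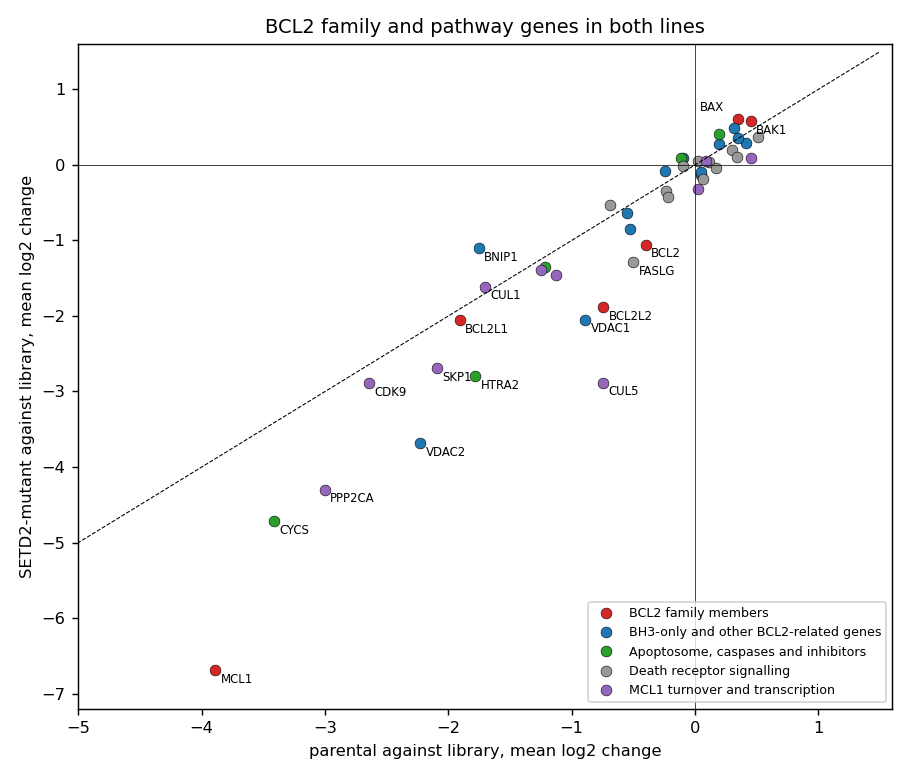
Mean log2 change against library in parental cells (horizontal axis) and in SETD2-mutant cells (vertical axis) of the 6 family members and the 40 genes of 4 apoptosis lists, coloured by list, with the line of equal change; both axes share the library samples. By these edgeR means MCL1 lies farthest below the line, at −3.89 and −6.69, followed by CUL5 at −0.75 and −2.88. BNIP1 lies above the line at −1.76 and −1.10. The place of MCL1 depends on how counts of 0 are treated. Its difference between the lines was −2.09 with a floor of 3 counts and −1.64 with a prior count of 2, against −2.13 for CUL5 by edgeR.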

How the data were processed

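The authors deposited unscaled guide counts of 6 samples. The tool MAGeCK and the build hg38 are listed, per the submitters' processing notes, without version or role. Coordinates are of genes in a RefSeq table (GRCh38.p14); guide sequences and cut sites were not analysed here. The members and the gene lists were chosen with earlier results of these data known. A minimum mean count of 30 in the library left 71470 guides and set aside 56. Counts were scaled by TMM and fitted in edgeR 4.0.16 (R 4.3.3; glmQLFit, robust, 6 samples by group, 3 residual degrees of freedom), with glmQLFTest per guide. RRA, rebuilt from its description with a rank share limit of 0.25 and an exact null for independent ranks, combined guides for 7090 genes with 3 or more guides, and p-values were adjusted in each direction over all of them. Each member was named, and of each list the called genes, up to 4 per comparison by lowest RRA p, or else up to 2 by lowest RRA p. FBXW7 and HUWE1 fall outside this rule and were named after their results were seen. One further list is not reported here. Folds of single MCL1 guides use summed counts over depth, with exact 95% intervals and a floor of 3 counts over the group. The fit was first tested on simulated data. Deviations from the group means of samples with the same replicate number had correlations of −0.0038, 0.0033 and −0.0030, with no shared effect over genes. They cannot show whether samples of the same number were handled together. Alternatives were DESeq2 1.42.0 size factors, library totals and dummyguide scaling, DESeq2 per guide, no filter, a library count of 100, a rank share limit of 0.1, 2 groups only, a replicate block, leaving out each sample, limma 3.58.1 on gene means, and summed counts per gene.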

Additional observations from a re-analysis of the deposited data

Results flagged for a closer look

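Some changes from library differed between the lines by the test of the difference itself (edgeR and RRA, SETD2-mutant against parental). These were MCL1 at −2.80, CUL5 at −2.13, VDAC2 at −1.46, VDAC1 at −1.16, BCL2L2 at −1.14 and BNIP1 at 0.65. The call of MCL1 held in 8 of 17 alternatives and that of CUL5 in all 17. The size of the MCL1 change depends on how counts of 0 are treated, and with a floor of 3 counts it was −2.09. The first SETD2-mutant sample was the shallowest, and its part in these differences was not tested beyond leaving it out. Groups of 2 samples allow no check for a single sample that stands apart.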

How the results depend on the processing

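Of the member results under alternatives, 282 kept their direction and, where a call was made, their call. A further 20 passed the threshold anew, 21 no longer passed it and 7 changed sign. For the listed pathway genes these numbers were 757, 39, 12 and 8. The member numbers include medians over guides and values at equal ribosomal protein dropout, which carry no call. Those count as kept where the sign held and the value moved by no more than the standard deviation over guides. Members called depleted between the lines numbered 1 in place of 2 with DESeq2 size factors, dummyguide scaling, DESeq2 per guide, a library count of 100, 2 groups only and the replicate block, because MCL1 was lost, and 0 to 2 when single replicates were left out. With the replicate block MCL1 had an adjusted p of 0.0828 between the lines by edgeR and RRA. BCL2L2 was then called in parental cells (adjusted p = 0.0109) and BCL2 was not called in SETD2-mutant cells (adjusted p = 0.0543), by the same test. Without single replicates, members called enriched in SETD2-mutant cells numbered 0 to 1. Listed genes called enriched between the lines then numbered 0 to 1. Dummyguide scaling left 0 members enriched in SETD2-mutant cells, and 2 groups only left 0 listed genes enriched between the lines.

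Limma on gene means and edgeR on summed counts per gene, which test gene values across samples, called more genes throughout. Each called 1 member enriched between the lines, and in parental cells 4 depleted and 2 enriched. In SETD2-mutant cells each called 2 enriched. Of the listed genes they called, in that order, 14 and 17 depleted and 2 and 4 enriched between the lines, 19 and 19 depleted and 8 and 10 enriched in parental cells, and 6 and 9 enriched in SETD2-mutant cells. Limma called 21 depleted there. The cause was not tested.

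With dummyguide scaling the sign turned for BAX (−0.38 in parental, −0.30 in SETD2-mutant cells), BAK1 (−0.27, −0.34, and −0.063 between the lines), TNFRSF1A (−0.22, −0.54), RIPK3 (−0.66 in parental cells), and CYLD (−0.032) and CUL1 (−0.10) between the lines. Over single replicates left out, BAK1 ranged from −0.047 to 0.29 between the lines and CUL1 from −0.17 to 0.33. Also between the lines stood AIFM1 at 0.091 with summed counts, and BCL2L1 at 0.13 at equal ribosomal protein dropout. Of the members, MCL1 alone had guides with no count. They numbered 4 and 3 of the 10 in the SETD2-mutant samples and 2 in the second parental sample. The part of depth in this was not tested.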
